A study of Mus musculus with 12 samples.

Results

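The members of IL-6, IL-1 and NF-kB signalling described here are 10 genes, followed through the livers of 12 male mice. They are the chemokine Cxcl1, the receptor genes Il6ra, Il6st and Il1r1, the IL-1 receptor antagonist Il1rn, the transcription factors Stat3, Cebpb and Cebpd, and the inhibitors Socs3 and Nfkbia. They were taken by gene symbol, and the rule found all 10 among the 51912 genes of the count table; 9 of them passed the expression filter and were tested, and Cebpd did not. RNAseq was carried out on the liver of 4 groups of 3 adult mice, and separate mice are the replicates. WT mice received corn oil or CITCO, an activator of the human constitutive androstane receptor (CAR). Mice humanised for CAR and the pregnane X receptor PXR (hCAR/hPXR), and mice that lack Car and carry human PXR (Car KO/hPXR), received CITCO. The study cites in vitro work which proposes that CITCO also activates human PXR, carried by both of these lines. CITCO was given intraperitoneally each day for 4 days at 10 mg/kg, the dose named in the sample labels, and the mice were killed on day 5. Both humanised lines lack mouse Pxr as well as mouse Car and were made on a C57BL/6NTac background. The libraries analysed here include corn oil only in WT mice, so a humanised genotype and its response to CITCO cannot be told apart.

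IL-6 binds its receptor Il6ra and the shared signalling subunit gp130 (Il6st), and the JAK kinases bound to gp130 activate Stat3. IL-1 acts through Il1r1 and NF-kB, and both routes meet at the promoters of acute-phase genes in the hepatocyte together with the C/EBP factors. The routes switch on their own brakes: Socs3 is a target of Stat3 and blocks the receptor, and Nfkbia (IkappaB alpha) is a target of NF-kB and holds it in the cytoplasm.

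Promoter stretches of Cxcl1, Nfkbia and Socs3 are shown because they carry the motifs by which these routes are known to act. Sequences are from RefSeq on GRCm38.p6, read 5′ to 3′ on the gene's strand, and capitals mark the motif. Cxcl1 (chr5:90891045-90891234, plus strand) and Nfkbia (chr12:55492658-55492847, minus strand) are shown from base 200 to base 11 before the start site with their kappaB matches, and Socs3 (chr11:117969501-117969530, minus strand) from base 164 to base 135 with its STAT match.
Cxcl1: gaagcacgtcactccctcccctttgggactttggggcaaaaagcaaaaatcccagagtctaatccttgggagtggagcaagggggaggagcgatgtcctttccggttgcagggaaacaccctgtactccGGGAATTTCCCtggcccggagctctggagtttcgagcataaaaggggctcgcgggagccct
Nfkbia: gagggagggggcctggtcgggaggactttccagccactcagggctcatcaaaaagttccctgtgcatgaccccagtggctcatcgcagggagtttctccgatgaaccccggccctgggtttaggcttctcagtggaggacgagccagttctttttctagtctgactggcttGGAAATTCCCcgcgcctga
Socs3: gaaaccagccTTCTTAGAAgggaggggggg

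The RefSeq table held a promoter for 9 of the 10 genes, with 12 start sites in all, and the 250 bases before each were searched on both strands. The kappaB motif matched Cxcl1 as 2 overlapping matches, at bases 71 to 62 and 70 to 61 before the start. It also matched Nfkbia at bases 29 to 20 and, as GGAATGCCCC, a further start site of Il1r1 at bases 232 to 223. Of 32851 mouse promoters of the same length, 7.25% held a kappaB match. The STAT motif TTCNNNGAA matched Socs3 at bases 154 to 146 and is held by 7.02% of promoters. The C/EBP motif TTGCNNAA matched Il1r1 at bases 133 to 126 (TTGCTGAA) and is held by 9.56%. The windows of Stat3, Il6ra, Il6st, Il1rn and Cebpb held no match. A match describes the letters in the window and not a bound site.

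Values are CPM, counts scaled to the library size after TMM normalisation, and groups are given as mean ± SD (n = 3). Libraries held between 1167027 and 2341572 counts, so that 3 counts stood for 1.34 to 2.505 CPM, and counting error alone limits what can be seen of Socs3, Il1rn and Cebpd. Levels were not compared between genes. Differences are log2 fold changes from edgeR's quasi-likelihood test over the 8594 genes that passed the filter, with Benjamini-Hochberg adjusted p-values. The standard error (SE) of each, and the confidence interval built on it, were derived from the log2 fold change and the test's F statistic. A gene was called at an adjusted p under 0.05 and a fold change over 1.5. Mouse Nr1i3 (Car) and Nr1i2 (Pxr) separated WT from humanised mice as labelled in all 12 libraries; they do not separate the humanised lines from each other. The 5 hepatocyte markers were present in every library and summed to 23892 and 24443 CPM in hCAR/hPXR replicates 1 and 2 and to between 29718 and 38855 in the others. All 5 had a negative log2 fold change in hCAR/hPXR against WT CITCO, with none called (smallest adjusted p = 0.543 by edgeR). Of them, 1 had an unadjusted p under 0.05, beside 8.81% of all genes.

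**Figure D1:**
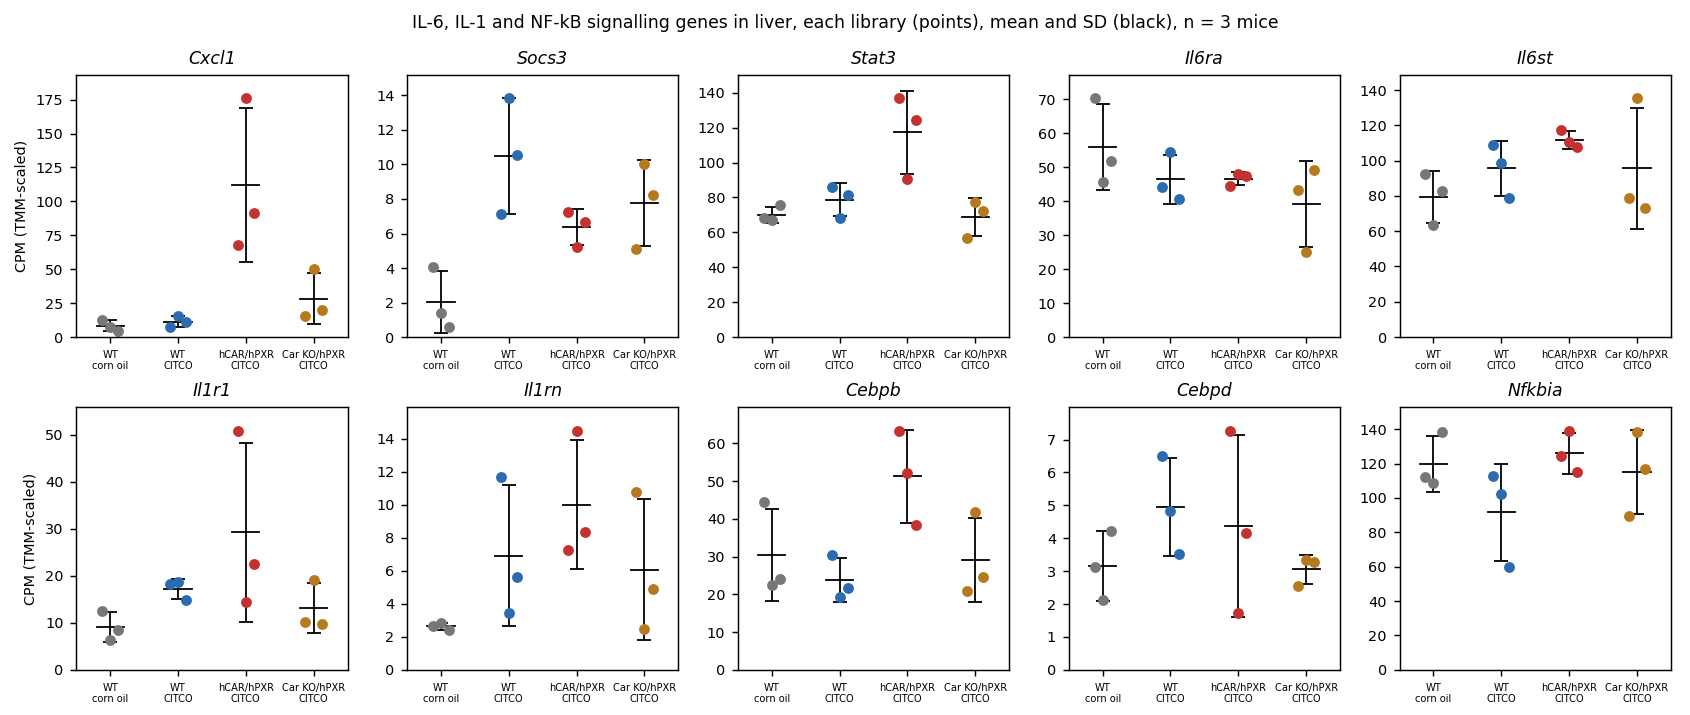
Level of each of the 10 genes (CPM, linear axes from 0) in the 4 groups, with 1 point per mouse and the mean and SD in black. The 3 hCAR/hPXR points of Cxcl1 lie between 67.9 and 176 CPM, above all 9 other mice, whereas Il6ra overlaps in all groups.

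Cxcl1, a chemokine that attracts neutrophils, was the member that rose. The gene lies at chr5:90891241-90893115 on GRCm38. Its counts were 28, 11 and 8 in WT mice given corn oil, 11, 22 and 16 in WT mice given CITCO, 131, 304 and 110 in hCAR/hPXR mice and 24, 60 and 24 in Car KO/hPXR mice. In CPM the mice ran from 4.83 to 12.5 in WT corn oil, from 7.14 to 15.2 in WT CITCO, from 67.9 to 176 in hCAR/hPXR and from 15.2 to 50.1 in Car KO/hPXR. Every hCAR/hPXR mouse therefore lay above every mouse of the other groups, the WT groups overlapped each other, and the lowest Car KO/hPXR mouse lay barely above the highest WT mouse.

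Group means of Cxcl1 were 8.38 ± 3.89 in WT corn oil, 11.2 ± 4.04 in WT CITCO, 112 ± 56.7 in hCAR/hPXR and 28.4 ± 19.0 in Car KO/hPXR. Cxcl1 was 9.98-fold higher in hCAR/hPXR than in WT mice given CITCO (95% confidence interval 5.22 to 19.1; log2 fold change 3.32, SE 0.45, adjusted p = 0.000783 by edgeR). Against WT corn oil it was 12.8-fold higher (interval 6.65 to 24.7; adjusted p = 0.000304 by edgeR). Both calls held in each of 13 alternative fits by edgeR, DESeq2 or limma, where the highest adjusted p was 0.0207 for the first and 0.00599 for the second.

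Against Car KO/hPXR mice, Cxcl1 was 4.01-fold higher in hCAR/hPXR mice (interval 2.23 to 7.22; log2 fold change 2.01, SE 0.40, adjusted p = 0.0251 by edgeR). Without Car KO/hPXR replicate 2 the log2 fold change was 2.68 (adjusted p = 0.0109 by edgeR). The call was lost when any of 4 other libraries was left out. The log2 fold change was then 1.51 (adjusted p = 0.119) without hCAR/hPXR replicate 2, 2.12 (0.0517) without hCAR/hPXR replicate 3, 1.68 (0.159) without Car KO/hPXR replicate 1 and 1.81 (0.157) without Car KO/hPXR replicate 3, all by edgeR. Calls over all genes, 50 in the main fit, were 58, 19, 19 and 10 in these fits. In Car KO/hPXR mice the log2 difference was 1.31 (SE 0.49, adjusted p = 0.361 by edgeR) against WT CITCO and 1.67 (SE 0.49, adjusted p = 0.491) against WT corn oil. Neither passed except without the filter on low counts. The difference to WT CITCO shrank to 0.63 on leaving out Car KO/hPXR replicate 2, the highest Cxcl1 mouse of its group. CITCO against corn oil in WT mice gave 0.36 (SE 0.54, adjusted p = 0.895 by edgeR). The test across the 4 groups at once gave an adjusted p of 0.000104 for Cxcl1 by edgeR, and Cxcl1 was the only member called there, against 1.42% of all genes tested.

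The receptor genes showed no call in any of the 6 comparisons. Il6ra (chr3:89864059-89913196, minus strand), the IL-6 binding chain, was at 70.3, 45.8 and 51.9 CPM in WT corn oil, 44.1, 54.6 and 40.8 in WT CITCO, 44.6, 48.0 and 47.5 in hCAR/hPXR and 43.2, 25.0 and 49.3 in Car KO/hPXR mice. All 4 groups overlapped. The difference between hCAR/hPXR and WT CITCO had a 95% interval of -0.49 to 0.50 on the log2 scale (adjusted p = 0.999 by edgeR). The largest, Car KO/hPXR against WT corn oil, was -0.52 (SE 0.24, adjusted p = 0.853).

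Il6st (chr13:112464070-112510086), which encodes gp130, was at 79.5 ± 14.7 CPM in WT corn oil, 95.6 ± 15.4 in WT CITCO, 112 ± 5.15 in hCAR/hPXR and 95.7 ± 34.4 in Car KO/hPXR mice. The 3 hCAR/hPXR mice, between 108 and 118, lay above the WT corn oil mice, whose highest value was 92.3. That log2 difference was 0.49 (SE 0.22) and did not pass (adjusted p = 0.419 by edgeR). Against WT CITCO the interval was -0.22 to 0.68. The spread in Car KO/hPXR mice came from replicate 2, at 135 beside 78.8 and 73.1 in the others.

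Il1r1 (chr1:40225080-40317257), the signalling receptor of IL-1, had counts of 28, 9 and 14 in WT corn oil, 28, 27 and 21 in WT CITCO, 98, 25 and 27 in hCAR/hPXR and 16, 23 and 12 in Car KO/hPXR mice. These correspond to 9.11 ± 3.15, 17.2 ± 2.12, 29.3 ± 19.1 and 13.1 ± 5.31 CPM. Replicate 1 of hCAR/hPXR stood apart at 50.8 CPM, with the other mice of its group at 14.5 and 22.5. Both the WT CITCO and the hCAR/hPXR mice lay above all WT corn oil mice. The log2 difference to WT corn oil was 0.87 (SE 0.44, adjusted p = 0.569 by edgeR) for WT CITCO and 1.66 (SE 0.41, adjusted p = 0.0668) for hCAR/hPXR. The second was sensitive to the libraries, at 0.95 (adjusted p = 0.499) without hCAR/hPXR replicate 1 and 1.99 (adjusted p = 0.0156) without hCAR/hPXR replicate 2. Il1r1 overlaps Gm38070 on the same strand, a gene with at most 20 counts in a library. The log2 difference of Gm38070 to WT corn oil was 0.96 (SE 0.85) for WT CITCO and 0.97 (SE 0.84) for hCAR/hPXR. It was 1.06 (SE 0.86) for Car KO/hPXR, and none of these passed.

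Il1rn (chr2:24336853-24351494) encodes the antagonist that occupies Il1r1 without signalling and is itself an acute-phase protein. It had few counts, 6, 4 and 4 in WT corn oil, 18, 5 and 8 in WT CITCO, 14, 25 and 10 in hCAR/hPXR and 17, 3 and 6 in Car KO/hPXR mice. Means were 2.64 ± 0.207, 6.92 ± 4.26, 10.0 ± 3.89 and 6.08 ± 4.27 CPM. The WT corn oil mice lay below every WT CITCO and every hCAR/hPXR mouse. The log2 differences of 1.37 (SE 0.61, adjusted p = 0.508 by edgeR) and 1.90 (SE 0.59, adjusted p = 0.179) did not pass, and the first was 0.77 without WT CITCO replicate 1.

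Among the transcription factors, Stat3 (chr11:100885098-100939540, minus strand) came nearest to a call. It was at 68.1, 67.0 and 75.5 CPM in WT corn oil, 86.3, 68.5 and 81.6 in WT CITCO, 137, 90.8 and 124 in hCAR/hPXR and 56.5, 77.7 and 72.3 in Car KO/hPXR mice. All 3 hCAR/hPXR mice lay above the 9 others, while the other groups overlapped. The log2 fold change of hCAR/hPXR was 0.77 (SE 0.19, adjusted p = 0.0691 by edgeR) against Car KO/hPXR, 0.74 (SE 0.18, adjusted p = 0.0656) against WT corn oil and 0.57 (SE 0.18, adjusted p = 0.282) against WT CITCO. DESeq2 called the first (adjusted p = 0.0210) and the second (adjusted p = 0.0178). Both were also called by edgeR without hCAR/hPXR replicate 2, the lowest of its group, at 0.93 (adjusted p = 0.0309) and 0.90 (adjusted p = 0.0212). Stat3 overlaps the 3′ end of Stat5a on the other strand, and the strand used in counting is not given in the sources used here. Stat5a had at most 31 counts in a library and differed between hCAR/hPXR and Car KO/hPXR by 0.70 (adjusted p = 0.792).

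Cebpb (chr2:167688915-167690418), a C/EBP factor of the acute-phase response, was at 44.3, 22.6 and 24.2 CPM in WT corn oil, 30.5, 19.4 and 21.8 in WT CITCO, 63.2, 52.1 and 38.4 in hCAR/hPXR and 21.0, 41.7 and 24.6 in Car KO/hPXR mice. The hCAR/hPXR values were all higher than those of WT CITCO and overlapped both other groups. The log2 fold changes of hCAR/hPXR were 1.11 (SE 0.31, adjusted p = 0.184 by edgeR) against WT CITCO, 0.84 (SE 0.31, adjusted p = 0.303) against Car KO/hPXR and 0.74 (SE 0.30, adjusted p = 0.344) against WT corn oil. Leaving out a library left the first at 0.91 or above with no call. Cebpb overlaps Tmem189 on the other strand, a gene with at most 21 counts in a library.

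Cebpd (chr16:15887286-15891031) had counts of 7, 3 and 7 in WT corn oil, 10, 7 and 5 in WT CITCO, 14, 3 and 5 in hCAR/hPXR and 4, 4 and 4 in Car KO/hPXR mice, after rounding. It did not pass the filter, and 9 of its 12 deposited values were not whole numbers, by up to 0.45. A difference in Cebpd was not detectable at this depth: without the filter, the smallest adjusted p of the 6 comparisons was 0.836 by edgeR. It overlaps Spidr, which had 22 counts over all libraries.

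Socs3, the inhibitor induced by Stat3 (chr11:117966079-117970047, minus strand), followed another order than Cxcl1. Counts were 9, 2 and 1 in WT corn oil, 11, 20 and 15 in WT CITCO, 14, 9 and 8 in hCAR/hPXR and 8, 12 and 10 in Car KO/hPXR mice. The means were 2.01 ± 1.79, 10.5 ± 3.35, 6.38 ± 1.05 and 7.77 ± 2.498 CPM. In CPM, all 9 mice given CITCO lay above all 3 mice given corn oil. The margin was narrow, from 4.03 in WT corn oil replicate 1 (9 counts) to 5.08 in Car KO/hPXR replicate 1 (8 counts). The 3 CITCO groups overlapped, with WT CITCO replicates 2 and 3 the highest. CITCO against corn oil in WT mice gave a log2 fold change of 2.23 (SE 0.56; 4.68-fold, interval 2.07 to 10.5), with an unadjusted p of 0.000863 and an adjusted p of 0.140 by edgeR. It was called only without the filter on low counts (adjusted p = 0.0212). In hCAR/hPXR mice Socs3 differed from WT CITCO by -0.71 (SE 0.49, adjusted p = 0.732 by edgeR) and from WT corn oil by 1.52 (SE 0.58, adjusted p = 0.314). In Car KO/hPXR mice it differed from WT corn oil by 1.78 (SE 0.58, adjusted p = 0.637). Leaving out a library gave between 1.82 and 3.31 for WT CITCO against corn oil, with adjusted p-values from 0.0677 to 0.481.

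Nfkbia (chr12:55489410-55492647, minus strand) was at 112, 109 and 138 CPM in WT corn oil, 113, 102 and 59.8 in WT CITCO, 124, 139 and 115 in hCAR/hPXR and 89.6, 139 and 117 in Car KO/hPXR mice. The hCAR/hPXR values were just higher than those of WT CITCO, with 115 the lowest of the former and 113 the highest of the latter. The log2 difference was 0.46 (SE 0.21, adjusted p = 0.559 by edgeR). Against WT corn oil it was 0.08 (SE 0.21, adjusted p = 0.948), and no comparison of Nfkbia passed.

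**Figure D2:**
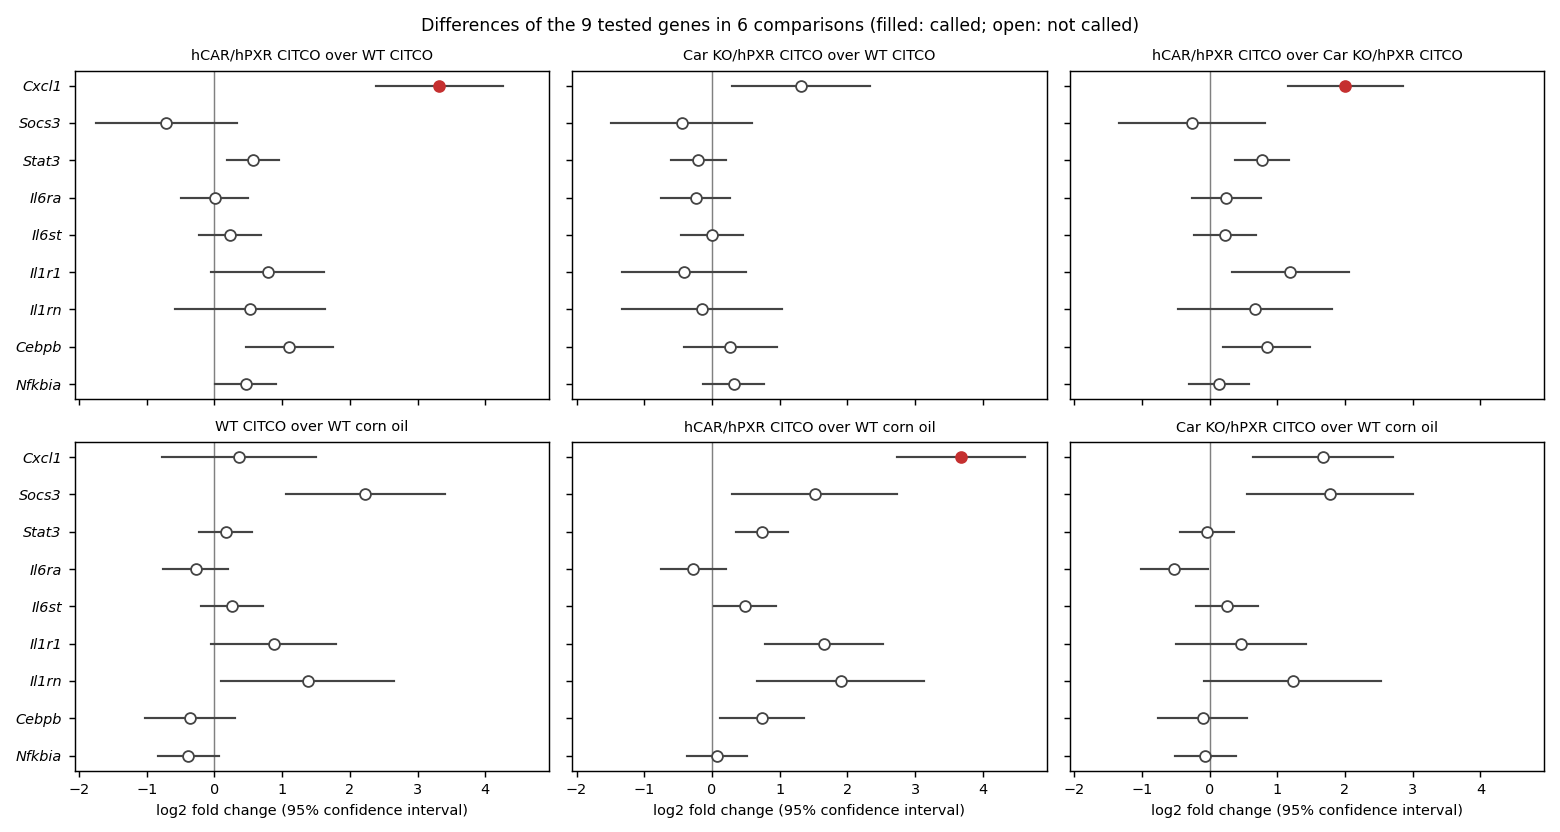
Log2 fold change of the 9 tested genes in each of the 6 comparisons, with 95% confidence intervals derived from the F statistic of edgeR's test. Filled points were called. Cxcl1 is filled in the 3 comparisons of hCAR/hPXR mice, at 3.32, 2.01 and 3.68, and the other 8 genes are open throughout.

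Counts over the members were set beside those over all genes. Between hCAR/hPXR and WT CITCO, 1 of the 9 tested was called, against 0.407% of all 8594 genes. An unadjusted p under 0.05 was found for 4 of them (Cxcl1, Stat3, Cebpb and Nfkbia), against 8.81% of all genes, and the same 4 genes had libraries that did not overlap, against 13.6%. Exact permutation of 3 mice against 3 cannot give a two-sided p under 0.1. The median log2 fold change of the 9 was 0.52, with 0.01 over all genes.

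Between hCAR/hPXR and Car KO/hPXR, 1 of 9 was called, against 0.582%. Here 4 members had an unadjusted p under 0.05 (Cxcl1, Stat3, Il1r1 and Cebpb; 10.6% of all genes) and 2 did not overlap (Cxcl1 and Stat3; 15.1%). Between hCAR/hPXR and WT corn oil, 1 of 9 was called, against 0.989%. There 7 members had an unadjusted p under 0.05, all except Il6ra and Nfkbia, against 10.9%, and 6 did not overlap, against 16.2% (Cxcl1, Socs3, Stat3, Il6st, Il1r1 and Il1rn). The medians of the 9 were 0.67 and 0.74, with 0.01 over all genes in each.

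With the filter on low counts, no member was called by edgeR or DESeq2 in the other 3 comparisons. Between Car KO/hPXR and WT CITCO, where 0.256% of genes were called, 1 of 9 had an unadjusted p under 0.05 (Cxcl1; 9.30% of all genes). Cxcl1 lay above WT CITCO in each mouse and the untested Cebpd below it, against 14.2% of tested genes that did not overlap, and the median was -0.15. For CITCO against corn oil in WT mice, with 0.233% of genes called, 2 of 9 had an unadjusted p under 0.05 (Socs3 and Il1rn; 9.13% of all genes). There Socs3, Il1r1 and Il1rn did not overlap (14.7%), and the median was 0.26. Between Car KO/hPXR and WT corn oil, with 0.0465% of genes called, 3 of 9 had an unadjusted p under 0.05 (Cxcl1, Socs3 and Il6ra; 5.60%), 2 did not overlap (Cxcl1 and Socs3; 11.6%) and the median was 0.26. The 6 comparisons share groups and are not independent of each other.

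The highest mouse of a group was not the same for all members. Replicate 1 of hCAR/hPXR was the highest of its group for Socs3, Stat3, Il6st, Il1r1, Cebpb and Cebpd, whereas replicate 2 was the highest for Cxcl1, Il6ra, Il1rn and Nfkbia. In Car KO/hPXR mice, replicate 2 was the highest for 8 of the 10 members and the lowest for Il6ra and Il1rn. Among the 8 was Cebpd, which had 4 counts in each mouse of that group. How often each mouse was the highest over all genes was not computed, so these ranks only describe the members.

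A further 70 genes of these pathways were listed by role, and 38 passed the filter. None was called by edgeR in any comparison, with 5, 6, 9, 5, 7 and 2 of them at an unadjusted p under 0.05 in the order hCAR/hPXR and Car KO/hPXR against WT CITCO, hCAR/hPXR against Car KO/hPXR, and WT CITCO, hCAR/hPXR and Car KO/hPXR against WT corn oil. The shares of all genes at an unadjusted p under 0.05 were 8.81%, 9.30%, 10.6%, 9.13%, 10.9% and 5.60% in that order. DESeq2 called 1, 0, 2, 0, 2 and 0 of the pathway genes, and 65, 69, 99, 45, 124 and 12 genes in all. Of 15 cytokines and chemokines listed as ligands, only Il18 was tested. The other ligands were scarcely counted, with 4 at 0 in all 12 libraries (Il11, Lif, Osm and Lta) and 9 that never passed 3 counts in a library. Summed over the 12 libraries there was 1 count of Il6, 7 of Il1a, 40 of Il1b and 4 of Tnf. Differences in these cytokines were therefore not detectable at this depth.

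Receptors, kinases and adaptors, transcription factors and inhibitors had 7 of 14, 16 of 18, 5 of 8 and 9 of 15 listed genes tested. The 7 tested receptors had log2 fold changes between 0.11 and 0.72 in hCAR/hPXR against WT CITCO, between -0.49 and 0.85 against Car KO/hPXR and between -0.72 and 0.59 against WT corn oil, with medians of 0.16, 0.17 and 0.41 beside 0.01 over all genes. Against 8.81% of all genes, 1 of them had an unadjusted p under 0.05 in the first comparison. That gene, Ltbr, the receptor of lymphotoxin beta, was named after its values were seen, as was Bcl3, a nuclear IkappaB protein. Ltbr was at 75.5 CPM in WT CITCO and 124 in hCAR/hPXR mice (log2 fold change 0.72, SE 0.17, adjusted p = 0.0846 by edgeR). The Ltbr difference was called with DESeq2 and without the filter on low counts. Bcl3 was at 22.0 CPM in WT corn oil and 52.4 in hCAR/hPXR mice (log2 fold change 1.26, SE 0.30, adjusted p = 0.0527 by edgeR). This difference was called with upper-quartile size factors, with DESeq2, without the filter and with only the groups compared.

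Hepatic genes known to be driven by Stat3, NF-kB and C/EBP factors were counted beside the members, 33 of 34 being tested. In hCAR/hPXR mice 2 were called against WT CITCO (0.407% of all genes), 6 against Car KO/hPXR (0.582%) and 16 against WT corn oil (0.989%), all higher. In WT mice 2 were called for CITCO against corn oil (0.233%), Saa1 and Saa2, both higher. In Car KO/hPXR mice 0 were called against WT CITCO or WT corn oil (0.256% and 0.0465%). There 9 and 4 had an unadjusted p under 0.05, beside 9.30% and 5.60% of all genes. DESeq2 called 4 and 1 of the targets there, and 69 and 12 genes in all. The list was drawn up with acute-phase results of these libraries known and is not independent evidence.

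Saa4, a serum amyloid A apolipoprotein, was at 279, 298 and 175 CPM in WT corn oil, 313, 391 and 250 in WT CITCO, 884, 635 and 499 in hCAR/hPXR and 268, 255 and 186 in Car KO/hPXR mice. Its hCAR/hPXR mice, like those of Cxcl1 and Stat3, lay above the 9 others, with a log2 fold change of 1.08 (SE 0.23, adjusted p = 0.0484 by edgeR) against WT CITCO and 1.51 (SE 0.24, adjusted p = 0.00502) against Car KO/hPXR. Steap4, a metalloreductase, was at 66.2 CPM in hCAR/hPXR and 16.9 in Car KO/hPXR mice (a difference of 1.96 on the log2 scale, adjusted p = 0.0181 by edgeR), while Hp (haptoglobin) was 1.66 higher on that scale (adjusted p = 0.00601). Serpina3m, a secreted serpin, was 0.74 higher in hCAR/hPXR than in WT CITCO mice (adjusted p = 0.0370 by edgeR).

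Saa2 showed a split that Cxcl1 did not. Its counts in WT CITCO mice were 1473, 688 and 35, where those of Cxcl1 were 11, 22 and 16 and those of Socs3 11, 20 and 15. The mouse with the lowest Saa2 count, WT CITCO replicate 3, was thus not the lowest for Cxcl1 or Socs3. It was the lowest of its group for Il6ra, Il6st, Il1r1, Cebpd and Nfkbia (40.8, 78.8, 14.8, 3.52 and 59.8 CPM). For Stat3, Il1rn and Cebpb it was not the lowest. Cebpd did not pass the filter and rested on 5 counts in this mouse. The share of all genes for which this mouse was the lowest was not computed. The Saa2 difference between WT CITCO and corn oil was 4.84 (adjusted p = 0.0264 by edgeR) and lost its call when WT CITCO replicate 1 or 2 or any corn oil library was left out. The calls of Saa4 and Serpina3m in hCAR/hPXR against WT CITCO were both lost without WT CITCO replicate 1 or 2 or hCAR/hPXR replicate 1 or 2, and with only these groups in the fit. Saa4 also lost it without WT CITCO replicate 3 and with RLE size factors, and Serpina3m without hCAR/hPXR replicate 3. The 6 calls against Car KO/hPXR became 0 without Car KO/hPXR replicate 3, 2 without hCAR/hPXR replicate 1 or Car KO/hPXR replicate 1, and 13 without hCAR/hPXR replicate 2. Over all genes, 50 calls became 10, 23, 19 and 58 in these fits, in that order. The 16 calls against WT corn oil became 3, 5 and 8 without WT corn oil replicates 3, 2 and 1, and 6 without hCAR/hPXR replicate 1. Over all genes, 85 calls became 31, 25, 58 and 48 in the same order.

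**Figure D3:**
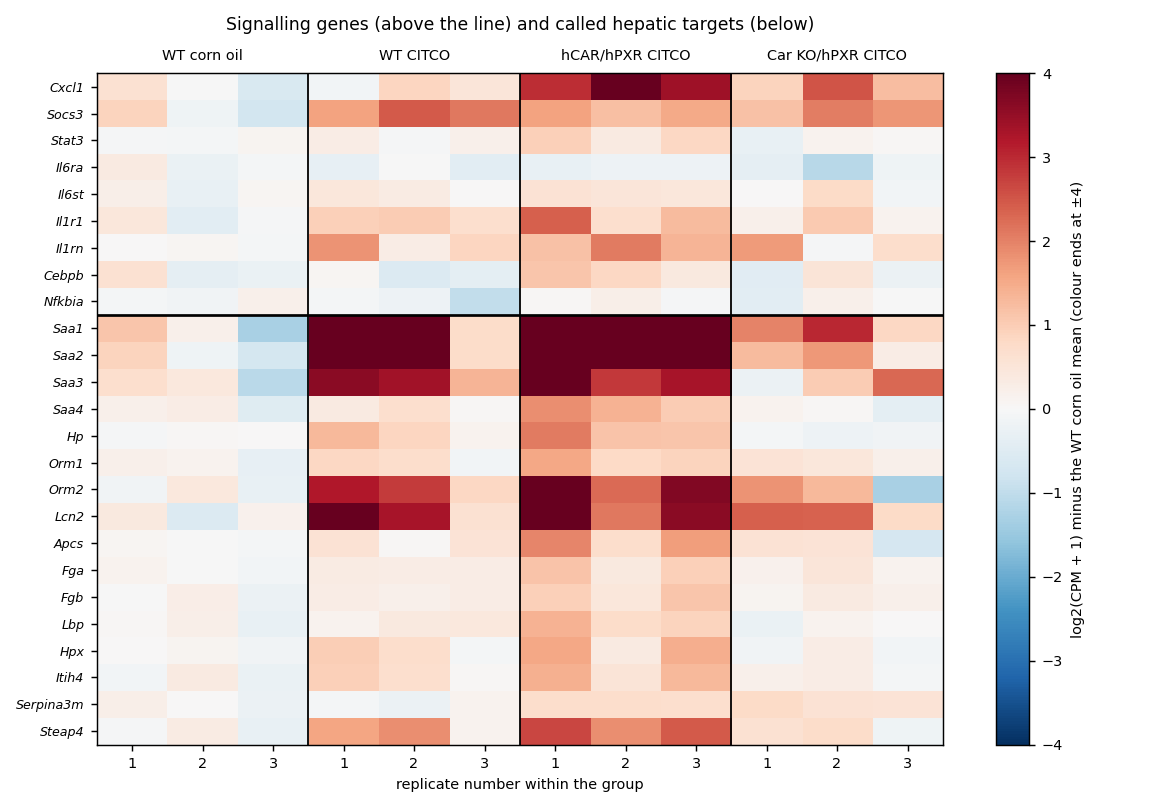
Log2(CPM + 1) minus the mean of the WT corn oil mice for the 9 tested members (above the line) and the hepatic targets called in at least 1 comparison (below), with 1 column per mouse and red for higher. Cxcl1 is darkest in the 3 hCAR/hPXR mice, Socs3 is red in all 9 mice given CITCO, and Saa1 and Saa2 are pale in WT CITCO replicate 3.

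Markers of other cell types were summed in each mouse, and some differed between the groups. The summed level of 8 neutrophil markers was 34.7 to 50.0 CPM in hCAR/hPXR mice, against 3.58 to 6.64 in WT corn oil, 4.22 to 11.03 in WT CITCO and 6.57 to 11.7 in Car KO/hPXR. The hCAR/hPXR mice thus stood above all others in the same way as for Cxcl1. Most of the sum came from S100a8 and S100a9, with 156 and 105 counts over all libraries, while the other 6 markers had at most 12 each. These 2 alone were tested, and S100a8, a calcium-binding protein of neutrophils, had 29, 44 and 34 counts in hCAR/hPXR and at most 8 in any other mouse. It was called in hCAR/hPXR against WT CITCO (log2 fold change 2.54, SE 0.44, adjusted p = 0.00961 by edgeR), Car KO/hPXR (2.16, SE 0.43, adjusted p = 0.0242) and WT corn oil (3.25, SE 0.46, adjusted p = 0.00144). The first of these calls was lost without hCAR/hPXR replicate 2 or 3 or WT CITCO replicate 3 (adjusted p up to 0.0640 by edgeR), the second without any Car KO/hPXR library or hCAR/hPXR replicate 2 or 3 (up to 0.130), and the third held. S100a9, its partner, was called against WT corn oil alone (log2 fold change 2.63, SE 0.59, adjusted p = 0.0387 by edgeR), in 5 of 12 alternatives.

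Defining neutrophil markers were near 0: Ly6g had 3 counts over all 12 libraries, Mmp8 0, Camp 2 and Ngp 3. Kupffer cell markers, 10 in number, summed to 302 to 375 CPM in WT corn oil, 368 to 551 in WT CITCO, 475 to 597 in hCAR/hPXR and 396 to 428 in Car KO/hPXR mice. The hCAR/hPXR mice overlapped WT CITCO there, and the scavenger receptor Marco alone among these markers was called, in hCAR/hPXR against WT corn oil (log2 fold change 1.82, SE 0.38, adjusted p = 0.0202 by edgeR). That call was lost without hCAR/hPXR replicate 1 or 3 or WT corn oil replicate 2 or 3 (adjusted p up to 0.120). The 5 red blood cell markers had negative log2 fold changes in hCAR/hPXR mice in each of the 3 comparisons, and summed to 1859 to 2192 CPM there, 2298 to 3882 in WT corn oil, 1987 to 3985 in WT CITCO and 2138 to 3424 in Car KO/hPXR. Of them Alas2, the first enzyme of heme synthesis in red cells, was called lower in hCAR/hPXR than in WT corn oil mice (log2 fold change -1.01, SE 0.22, adjusted p = 0.0264 by edgeR), and lost the call in 5 of 6 fits without 1 library. The 4 monocyte markers summed to 43.5 to 65.1 CPM in hCAR/hPXR mice and 29.2 to 61.5 in WT CITCO. Of these, Lyz2 had 797 counts over all libraries and each of the others at most 30. The 7 T and B cell markers, none of them tested, summed to 1.04 to 2.89 CPM in hCAR/hPXR and 3.18 to 7.51 in Car KO/hPXR mice. In WT corn oil they summed to 2.42 to 3.58 CPM and in WT CITCO to 2.77 to 5.84. Sinusoidal endothelial markers summed to 190 to 225 CPM in hCAR/hPXR and 232 to 247 in WT corn oil mice. They summed to 208 to 250 in WT CITCO and 222 to 245 in Car KO/hPXR mice. Stellate cell markers summed to 270 to 307, 248 to 266, 261 to 383 and 193 to 278 CPM in the same order. For cholangiocyte markers the sums were 16.2 to 20.0, 21.9 to 27.5, 12.7 to 21.4 and 19.2 to 24.8 CPM. No tested marker of these types was called. The part of any of these cells in the level of Cxcl1 was not tested, and in bulk liver RNA more or fewer cells of a type and more or less RNA per cell cannot be told apart.

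**Figure D4:**
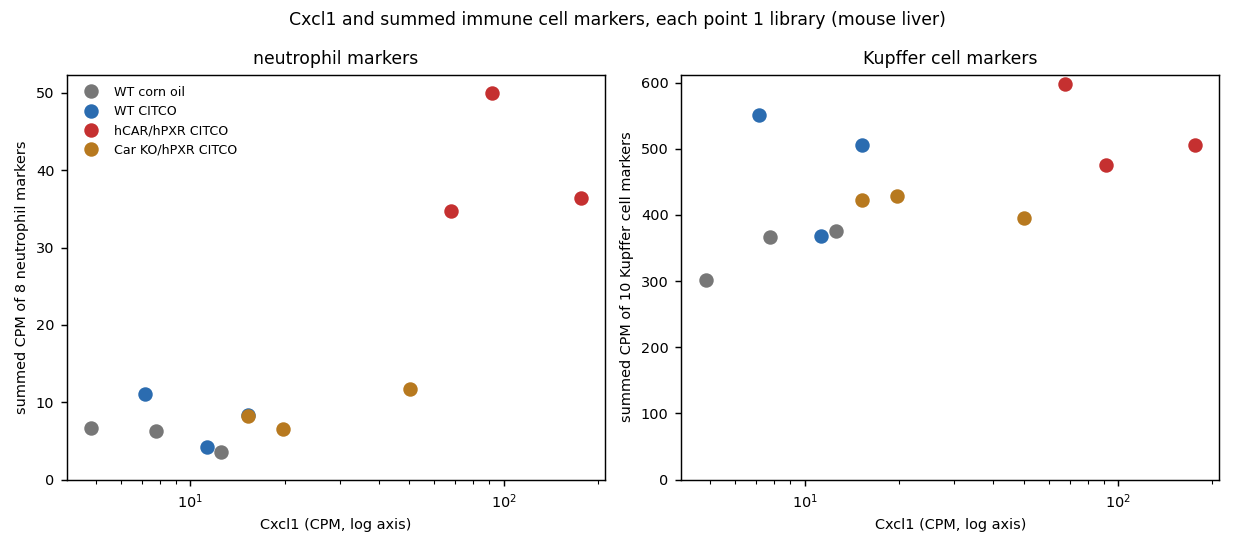
Cxcl1 (CPM, log axis) against the summed CPM of 8 neutrophil markers (left) and of 10 Kupffer cell markers (right), with 1 point per mouse. The 3 hCAR/hPXR mice stand apart from the 9 others on the left, with sums of 34.7 to 50.0 CPM, and overlap WT CITCO on the right.

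The genes whose log2 CPM followed Cxcl1 most closely over the 12 libraries were Ces2a (Pearson r = 0.94), Cyp3a11 (0.93), Cyp3a63-ps (0.93), Cyp2c55 (0.91) and S100a8 (0.88). The 4 groups are common to all these points, and the high hCAR/hPXR mice weigh most in each value. Ces2a, a carboxylesterase, was at 189 ± 46.6 CPM in WT corn oil, 174 ± 2.90 in WT CITCO, 368 ± 97.9 in hCAR/hPXR and 256 ± 29.0 in Car KO/hPXR mice, the same order of the humanised groups as for Cxcl1. Cyp3a11, a cytochrome P450, was at 3628 ± 206 CPM in hCAR/hPXR and 1777 ± 568 in Car KO/hPXR mice, with 896 ± 196 in WT CITCO. For Socs3 the closest were 1810022K09Rik (0.89), E2f6 (0.87), Stk35 (0.85), Gm4737 (0.85) and Cnnm3 (0.84). By rank (Spearman) these correlations were 0.78, 0.56, 0.89, 0.60 and 0.78 in that order. Socs3 itself had only 9, 2 and 1 counts in the WT corn oil mice. E2f6, a transcriptional repressor, was at 9.42 ± 2.77 CPM in WT corn oil and between 16.3 and 18.6 on average in the 3 CITCO groups, as Socs3 was lowest in corn oil.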

How the data were processed

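Liver RNAseq of 12 male mice in 4 groups of 3, taken from the sample labels, was analysed. The library kit reads the 3′ ends of mRNA. The authors deposited expected counts per gene, without normalization, for 51912 genes, estimated with RSEM 1.3 after Trimmomatic 36 and STAR 2.5.2 on the Ensembl annotation of GRCm38, per the submitters' processing notes. A second deposited table gives 17859 genes as log2-like values after the variance-stabilising transformation of DESeq2. The strand used in counting is not given in the sources used here. RSEM divides reads between genes, and 11 of the 120 values of the members (9 of Cebpd, 2 of Stat3) were not whole.

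After rounding, the counts were fitted in edgeR 4.0.16 (R 4.3.3) with its expression filter, TMM factors, a mean for each of the 4 groups and the quasi-likelihood test, adjusted by Benjamini-Hochberg over 8594 genes. Alternatives were RLE and upper-quartile size factors, DESeq2 1.42.0, limma 3.58.1 on the transformed table, no filter, fits of the compared groups alone, the replicate number as a block, and fits without each library. The main fit was tested on simulated data for hCAR/hPXR against WT CITCO. Of the tested genes set 1.5-fold apart, which is the fold threshold itself, 3 of 49 were called. At 2-fold 18 of 49 were called, at 4-fold 38 of 47 and at 8-fold 49 of 49. Of 114 calls, 6 were false. Libraries held 1167027 to 2341572 counts; intervals cover the spread between these mice, and floors cover counting error only. A p-value of the main fit sets the difference between groups against the spread between mice within groups, estimated over all 12 libraries.

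The members and the gene lists were chosen with earlier results of these data known. Beside the members, genes were named where called in a comparison (up to 4 per role, smallest adjusted p first), as the 5 closest in pattern to Cxcl1 or Socs3, or as stated. Coordinates are from GENCODE M21 on GRCm38 and promoters from RefSeq on GRCm38.p6, not the authors' release. The Socs3 promoter is cut to 30 bases because its RefSeq start lies inside the longer GENCODE gene.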

Additional observations from a re-analysis of the deposited data

How the results depend on the processing

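Cxcl1 was the only member called in hCAR/hPXR against WT CITCO under all alternatives except without the filter on low counts. Calls over all genes also rose without that filter, from 35 and 22 to 184 and 227 for hCAR/hPXR and Car KO/hPXR against WT CITCO. They rose from 50 to 233 for hCAR/hPXR against Car KO/hPXR and from 122 to 540 across the 4 groups. Against WT corn oil they rose from 85, 20 and 4 to 261, 179 and 95 for hCAR/hPXR, WT CITCO and Car KO/hPXR. Without that filter the members called were 2 in hCAR/hPXR against WT CITCO (Cebpb and Cxcl1), 1 in Car KO/hPXR against WT CITCO (Cxcl1), 3 in hCAR/hPXR against Car KO/hPXR and 3 against WT corn oil (Cxcl1, Il1r1 and Stat3 in each), 1 in WT CITCO against corn oil (Socs3), 1 in Car KO/hPXR against WT corn oil (Cxcl1) and 4 across the 4 groups (Cebpb, Cxcl1, Il1r1 and Stat3). With DESeq2 they were 2 in hCAR/hPXR against Car KO/hPXR, 2 against WT corn oil and 2 across the 4 groups, Cxcl1 and Stat3 each time; DESeq2 gave no adjusted p for Socs3, Il1r1 and Il1rn in most comparisons. Leaving out 1 library gave 0 to 1 for hCAR/hPXR against Car KO/hPXR (0 without Car KO/hPXR replicate 1 or 3 or hCAR/hPXR replicate 3; without hCAR/hPXR replicate 2 the call was Stat3 and not Cxcl1), 1 to 3 against WT corn oil and 1 to 3 across the 4 groups (3 without hCAR/hPXR replicate 2: Cxcl1, Il1r1 and Stat3). Over all genes, DESeq2 called 99, 124 and 225 for hCAR/hPXR against Car KO/hPXR, against WT corn oil and across the 4 groups. Without 1 library, edgeR called 10 to 58, 25 to 91 and 60 to 160 in that order. The cause was not tested.

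Differences near 0 changed sign, none of them called. Il6ra in hCAR/hPXR against WT CITCO went from 0.00 to -0.012 with RLE size factors, -0.013 with DESeq2, -0.0029 with limma and -0.0026 with only these groups, and ran from -0.084 to 0.12 when a library was left out. Without single libraries, Car KO/hPXR against WT CITCO ran from -0.33 to 0.15 for Il6st, from -0.89 to 0.46 for Il1rn and from -0.077 to 0.48 for Cebpb. Nfkbia in hCAR/hPXR against Car KO/hPXR ran from -0.018 to 0.29, and Cebpb in WT CITCO against corn oil from -0.58 to 0.037. Car KO/hPXR against WT corn oil ran from -0.13 to 0.095 for Stat3, from -0.071 to 0.41 for Il6st, from -0.44 to 0.30 for Cebpb and from -0.22 to 0.092 for Nfkbia.

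The groups share replicate numbers, but none of 18 same-number pairs of libraries had deviations correlated over 0.1 (r from -0.06 to 0.07), so the numbers were not taken to pair mice. With the number as a replicate block, the members called were 1 in hCAR/hPXR against WT CITCO, 1 against Car KO/hPXR, 1 against WT corn oil and 0 elsewhere, the same counts as without it. At these depths and 3 mice per group, differences in Socs3, Il1rn, Cebpd and the cytokine ligands rest on few counts. A difference of such a gene, or of a better counted member, that did not pass is not shown to be absent.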
